A study of Mus musculus with 3 samples.

Results

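Collagens are the main structural proteins of the extracellular matrix, and their genes were read on 3 one-colour microarrays of mouse liver expressing human YAP. The gene table used for names holds 44 numbered collagen genes, and 42 of them had a probe, out of 20284 genes named on the array. Members were taken by their symbol alone (Col, a type number, the letter a and a chain number), so the rule uses no measured value. They comprised 11 fibrillar collagens, 8 basement membrane collagens and 23 collagens of other types. Col6a3 and Col12a1 had no matched probe and are not analysed here.

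All 3 groups were livers of strain c57BL6/J, collected 2 days after hydrodynamic tail vein injection (HTVi), in which a large volume of plasmid solution is pushed quickly into the tail vein and reaches the liver. The plasmids encoded human YAP, a transcriptional coactivator restrained by the Hippo pathway, as the wild type (WT) or as the active mutants 1SA or 2SA. Per the study's methods, the YAP proteins carried a Myc tag and were driven by an enhancer and promoter specific to hepatocytes, only some hepatocytes received the plasmid, and the mice used were mainly young adult males. Each group held 1 array, all 3 arrays shared 1 slide, and no uninjected liver was among them, so the effect of HTVi itself is common to every value. Neither the labels nor the methods state how many animals gave the RNA of each array. The comparisons ask how collagen expression in YAP (1SA) and YAP (2SA) livers differed from that in YAP (WT) livers and from each other.

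Collagens share a triple helix of 3 chains, which are hydroxylated and folded in the endoplasmic reticulum, secreted, trimmed and cross-linked outside the cell. Fibrillar collagens (types I, II, III, V, XI, XXIV and XXVII) form the banded fibrils that accumulate in liver scars, whereas type IV forms the meshwork of basement membranes. In liver, types I and III come mainly from stellate cells and portal fibroblasts, and type XVIII is made by hepatocytes as well. In whole-liver RNA, fewer cells of a type and less RNA per cell cannot be told apart.

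With 1 array per group there was no spread between animals and no test. The only repeat measurement came from probes printed in several spots, whose spots had a median standard deviation (SD) of 0.07 on the log2 scale, which gives an SD of 0.10 for a difference between arrays. A difference of 2 such SD (0.21, taken before rounding) served as a mark for error between spots, and it does not cover variation between animals. Levels below are relative to the 75th percentile of the array's spots, so that a level of 1 equals that percentile, and differences are log2 differences of such levels. Error terms are standard errors (SE) from the scanner's own error estimate of each spot. As a check on the tissue, all 10 hepatocyte markers were well above background on every array, and Alb, the gene for albumin, had levels of 1279, 1369 and 1045 in YAP (WT), YAP (1SA) and YAP (2SA) livers.

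The 250 bases before the start of some of these genes are shown first. Col1a2 and Col3a1 encode chains of different collagens, types I and III, of the main scar-forming fibrils. The table of promoters held no window for Col1a1, the partner chain of Col1a2. Col4a5 and Col4a6 are basement membrane genes that lie head to head on chromosome X with their starts near each other. The sequences are from RefSeq on build GRCm38.p6, read 5′ to 3′ along each gene. Capitals mark the letters GGAATG (the core motif bound by TEAD factors, the partners of YAP), CCAAT (the CCAAT box) and TATAAA (the TATA box) or their complements. The windows of Col4a5 and Col4a6 are shorter because bases inside the annotated gene were left out.
Col1a2, chr6:4505368-4505617, plus strand: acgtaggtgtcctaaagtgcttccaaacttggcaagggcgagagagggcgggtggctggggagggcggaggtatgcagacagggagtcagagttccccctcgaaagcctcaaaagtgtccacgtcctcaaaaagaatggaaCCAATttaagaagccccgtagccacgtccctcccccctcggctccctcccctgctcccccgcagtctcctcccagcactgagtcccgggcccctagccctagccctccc
Col3a1, chr1:45311288-45311537, plus strand: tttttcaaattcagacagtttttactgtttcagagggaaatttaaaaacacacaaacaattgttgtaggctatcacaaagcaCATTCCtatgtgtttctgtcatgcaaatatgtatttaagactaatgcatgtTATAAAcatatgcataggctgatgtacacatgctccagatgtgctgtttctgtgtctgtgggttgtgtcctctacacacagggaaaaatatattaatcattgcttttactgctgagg
Col4a5, chrX:141475169-141475369, plus strand: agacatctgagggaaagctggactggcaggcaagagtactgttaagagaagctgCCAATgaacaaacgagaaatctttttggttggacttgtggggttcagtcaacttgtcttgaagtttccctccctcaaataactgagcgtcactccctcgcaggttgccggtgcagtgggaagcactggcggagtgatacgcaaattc
Col4a6, chrX:141474096-141474326, minus strand: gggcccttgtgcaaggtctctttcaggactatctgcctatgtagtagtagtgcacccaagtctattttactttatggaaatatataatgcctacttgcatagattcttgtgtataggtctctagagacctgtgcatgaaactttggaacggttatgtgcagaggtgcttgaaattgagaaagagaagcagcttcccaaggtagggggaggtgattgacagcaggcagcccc

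The table of promoters held 38 windows of 250 bases for 35 of the collagen genes. GGAATG or its complement was in 4 of them (10.5%), those of Col3a1, Col6a2, Col18a1 and Col20a1, against 12.6% of all 32851 windows. CCAAT on either strand was in 13 (34.2%) against 33.8% of all windows, and TATAAA in 5 (13.2%) against 12.4%. These shares lie close to those of all promoters, and a match of letters is a description and not a binding site. None of the 3 motifs was found in the window of Col4a6.

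Detection set how much could be compared. Of the 42 collagen genes, 23 were well above background in YAP (WT) livers, 24 in YAP (1SA) livers and 26 in YAP (2SA) livers. Over all 55681 probes the measured ones rose in the same order, 28972, 29705 and 30784, so the collagen counts are not read as a change of collagens. On all 3 arrays 22 were measured, namely 8 of the 11 fibrillar, 6 of the 8 basement membrane and 8 of the 23 other collagens. A further 14 genes were not well above background on any array, with intensities between 2.22 and 12.3 over their 20 probes. These were Col2a1 and Col24a1 among the fibrillar collagens, Col15a1 among the basement membrane collagens, and Col6a4, Col6a5, Col6a6, Col9a1, Col9a3, Col10a1, Col17a1, Col19a1, Col22a1, Col26a1 and Col28a1. They include genes known best from cartilage and skin, such as Col2a1, Col10a1 and Col17a1. The remaining 6 were measured on some arrays only and are described after the classes.

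**Figure D1:**
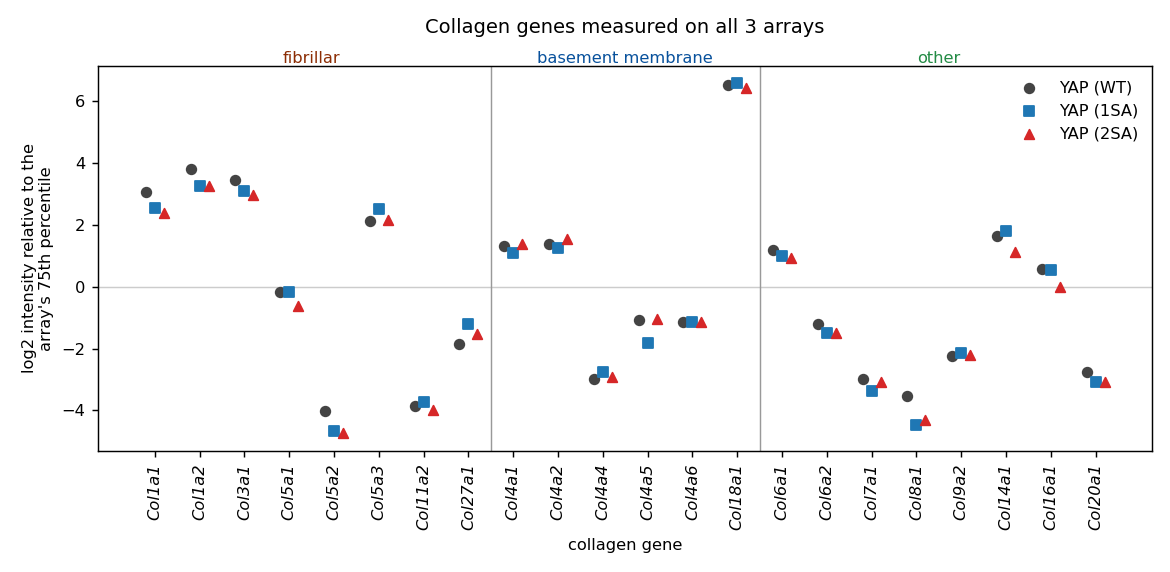
Levels of the 22 collagen genes measured on all 3 arrays, as log2 of intensity relative to the 75th percentile of the array (0 is that percentile). Each symbol is 1 array; levels of different genes come from different probes and are not comparable. Col1a1, Col1a2 and Col3a1 were highest in YAP (WT) livers, and Col4a5 was low in YAP (1SA) livers.

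The fibrillar collagens that make up most of a liver scar were lower in both mutants than in YAP (WT) livers. Col1a1 (NM_007742), a chain of type I collagen, had levels of 8.39 in YAP (WT), 5.78 in YAP (1SA) and 5.22 in YAP (2SA) livers. Its partner chain Col1a2 (NM_007743) had levels of 13.8, 9.59 and 9.41 in the same order. Col3a1 (NM_009930), which forms type III collagen, had levels of 10.9, 8.51 and 7.79. All 3 genes were highest in YAP (WT) livers, and the levels in both mutants lay near each other.

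Relative to YAP (WT) livers, Col1a1 differed by -0.54 ± 0.20 (scanner SE) on the log2 scale in YAP (1SA) and by -0.68 ± 0.20 in YAP (2SA) livers. The differences of Col1a2 were -0.53 and -0.55, and those of Col3a1 were -0.35 and -0.48. All 6 values exceeded the mark of 0.21 for error between spots. After normexp, a model-based background correction with an offset of 50 that is an alternative to the scanner's own, they were -0.55 and -0.62 for Col1a1, -0.50 and -0.53 for Col1a2, and -0.38 and -0.45 for Col3a1. Between YAP (2SA) and YAP (1SA) livers the same genes differed by -0.15, -0.03 and -0.13, which is within that mark. Both mutants were compared with the same YAP (WT) array, so a shift of that array alone would move both differences together.

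Type V collagen, which joins type I fibrils and sets their diameter, did not move as a unit. Col5a1 had levels of 0.895, 0.894 and 0.648, and so differed by -0.00 in YAP (1SA) and -0.47 in YAP (2SA) livers. Col5a2 had levels of 0.0616, 0.0392 and 0.0375, with differences of -0.65 ± 0.41 and -0.71 ± 0.39. Its probe was dim, with intensities of 17.9, 10.8 and 12.0 against a lowest measured intensity on these arrays of 12.5, 10.3 and 5.94. After normexp the differences of Col5a2 were -0.12 and -0.24. Col5a3 had levels of 4.31, 5.62 and 4.41, which is 0.38 higher in YAP (1SA) and 0.03 higher in YAP (2SA) livers. Thus Col5a1 was low on the YAP (2SA) array and Col5a3 was high on the YAP (1SA) array. Col5a2 was lower on the arrays of both mutants by a dim probe only, and in YAP (1SA) livers within the mark after normexp.

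Col27a1, which encodes a fibrillar collagen of developing cartilage, had levels of 0.278, 0.432 and 0.347. It was the only fibrillar gene higher than in YAP (WT) livers by more than the mark of 0.21 in both mutants, with differences of 0.64 ± 0.21 and 0.32 ± 0.21. After normexp these were 0.36 and 0.13. Col11a2, a chain of type XI collagen, had levels of 0.0694, 0.0762 and 0.0632, and its differences of 0.13 and -0.14 were within both the mark and its scanner SE of 0.37.

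Over the 8 measured fibrillar genes, the median difference from YAP (WT) livers was -0.18 in YAP (1SA) and -0.47 in YAP (2SA) livers, and the median difference between the mutants was -0.21. Over all 13626 named genes measured on all 3 arrays the same medians were -0.00, -0.03 and -0.03. All 8 fibrillar genes were lower in YAP (2SA) than in YAP (1SA) livers, beside 54.4% of all genes. Of the 8, 4 (Col5a1, Col5a3, Col11a2 and Col27a1) were lower by more than the mark, beside 23.8% of all genes. Col11a2 was dim, at -0.27 ± 0.34, and after normexp it was at -0.16, within the mark. The count of 8 depends on the scaling: Col1a2 was at 0.05 and Col5a2 at 0.01 with the series matrix values, and Col1a2 at 0.01 with quantile normalisation. Against YAP (WT) livers, 5 of the 8 were lower in YAP (1SA) and 6 of the 8 in YAP (2SA) livers, beside 50.3% and 56.4% of all genes. After normexp the medians against YAP (WT) livers were -0.09 and -0.32.

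**Figure D2:**
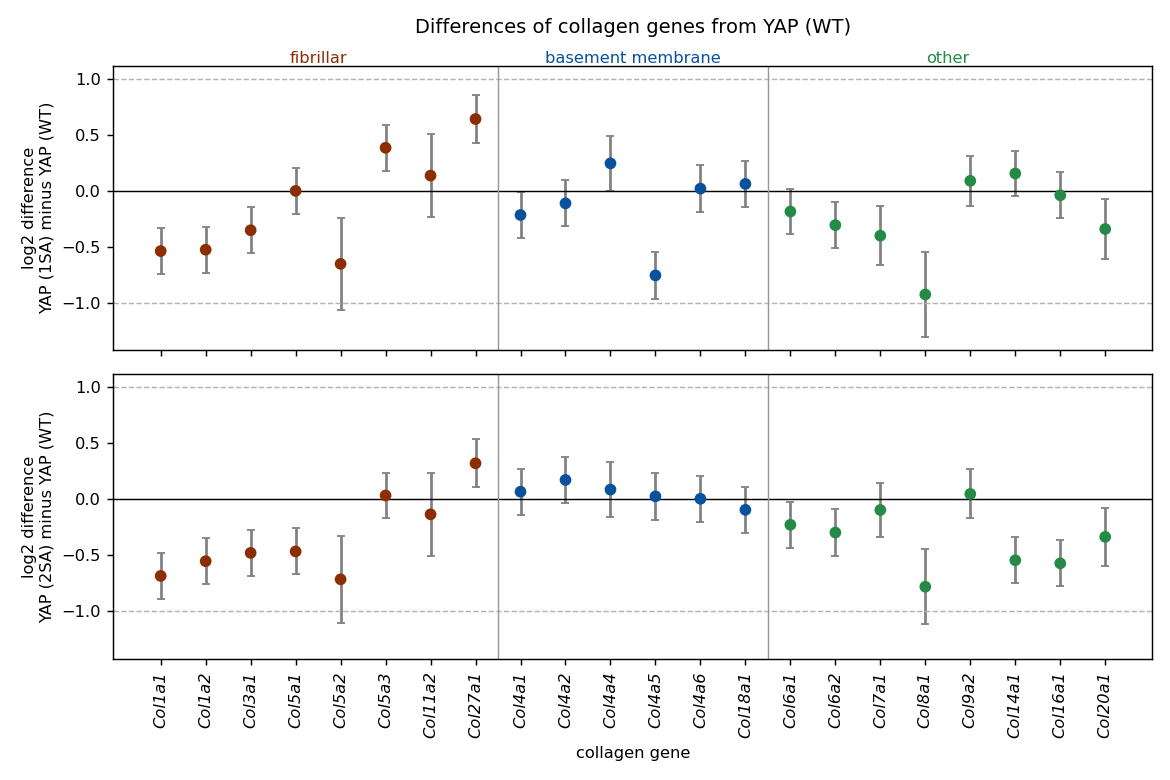
Log2 difference of each of the 22 collagen genes from YAP (WT) in YAP (1SA) (top) and YAP (2SA) livers (bottom), by class; bars are ± 1 scanner SE and dashed lines mark a 2-fold difference. No gene reached 2-fold, the 6 basement membrane genes lay between -0.09 and 0.17 in YAP (2SA) livers, and Col4a5 and Col8a1 were the lowest genes in YAP (1SA) livers.

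Basement membrane collagens were near their YAP (WT) levels in YAP (2SA) livers, where all 6 measured genes lay within the mark of 0.21 by their brightest probe. The exception by another probe was Col4a4, at -0.55, which as the mean of its probes was at -0.23. Col4a1 and Col4a2 form the main type IV network around blood vessels and ducts and are transcribed head to head from a shared promoter. Col4a1 (NM_009931), whose probe was printed in 10 spots, had levels of 2.46, 2.11 and 2.57, and its spots had an SD of 0.04, 0.06 and 0.06 on the log2 scale. As levels the spots ran from 2.34 to 2.54, from 1.92 to 2.23 and from 2.44 to 2.73, so that those of YAP (1SA) lay below the others, while those of YAP (WT) and YAP (2SA) overlapped. Col4a2 (NM_009932) had levels of 2.59, 2.39 and 2.92.

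The 2 genes kept the same order of the groups, lowest in YAP (1SA) and highest in YAP (2SA) livers. Against YAP (WT) livers, Col4a1 differed by -0.22 and 0.07 and Col4a2 by -0.11 and 0.17. Both were 0.28 higher in YAP (2SA) than in YAP (1SA) livers, with a scanner SE of 0.20.

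Col4a5 and Col4a6, whose upstream sequences are shown above and which together form the type IV network of smooth muscle, differed from each other. Col4a5 (NM_001163155) had levels of 0.476, 0.282 and 0.484, so that it was low on the YAP (1SA) array and alike on the others. It differed from YAP (WT) livers by -0.76 ± 0.21 in YAP (1SA) and by 0.03 in YAP (2SA) livers, and by 0.78 ± 0.21 between the mutants. After normexp these were -0.32, 0.15 and 0.47. Col4a6 (NM_053185), by contrast, had levels of 0.451, 0.457 and 0.452, with differences of 0.02, 0.00 and -0.02.

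Col4a4, a chain of the type IV network of the kidney glomerulus, gave no clear direction. Its brighter probe had levels of 0.126, 0.149 and 0.133, and another had 0.145, 0.109 and 0.0990, so that the difference in YAP (1SA) livers was 0.24 by the first probe and -0.41 by the other. In YAP (2SA) livers these probes differed by 0.09 and -0.55, and its remaining probe was not well above background. Col18a1 (NM_001109991), whose product carries endostatin at its end, had levels of 90.9, 94.8 and 85.1 by its brighter probe and 63.4, 62.5 and 64.0 by the other. No difference of Col18a1 by either probe was larger than 0.16 in size.

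As a class, the 6 basement membrane genes had median differences of -0.05 in YAP (1SA), 0.05 in YAP (2SA) and 0.13 between the mutants, beside -0.00, -0.03 and -0.03 for all genes. When dim probes were kept, the median between the mutants was -0.09 over all 8 genes. Against YAP (WT), these genes by their brightest probes spread less in YAP (2SA) livers (SD over genes 0.09) than the fibrillar genes (SD 0.37) or all genes (SD 0.33). This did not hold in YAP (1SA) livers, with an SD of 0.35 beside 0.34 for all genes. Between the mutants the SD was 0.36 beside 0.42.

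Among the other types, type VI collagen forms beaded filaments around cells and fat droplets in many tissues. Col6a1 had levels of 2.24, 1.97 and 1.91 and Col6a2 levels of 0.433, 0.350 and 0.352. Both were highest in YAP (WT) livers, with differences of -0.19 and -0.23 for Col6a1 and -0.31 and -0.30 for Col6a2. Between the mutants they differed by -0.04 and 0.01.

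FACIT collagens (fibril-associated collagens with interrupted triple helices) sit on the surface of fibrils, and among them Col14a1 and Col16a1 were low on the YAP (2SA) array. Col14a1 (NM_181277), which binds type I fibrils and decorin, had levels of 3.13, 3.48 and 2.15. It differed by 0.15 in YAP (1SA) and by -0.54 ± 0.20 in YAP (2SA) livers, and a second probe of the gene gave 0.28 and -0.27. Between the mutants its difference was -0.70 by the first probe and -0.56 by the second. Col16a1 (NM_028266) had levels of 1.48, 1.44 and 0.993, with differences of -0.04 and -0.57 ± 0.20, and a second probe gave -0.18 and -0.45. For both genes YAP (2SA) livers were thus lowest by each measured probe. The remaining probe of Col16a1 was not well above background.

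The remaining members were dim. Col9a2, a partner of type II collagen in cartilage, had levels of 0.211, 0.224 and 0.218. Col20a1 had levels of 0.149, 0.117 and 0.118 by its brighter probe, with differences of -0.34 in both mutants, while its other probe gave 0.12 and 0.07. After normexp the differences of the brighter probe were -0.07 and -0.11, so no direction can be given for Col20a1. Col7a1, the anchoring fibril collagen of skin, had levels of 0.127, 0.0963 and 0.119, and its differences of -0.40 in YAP (1SA) livers and 0.30 between the mutants were -0.00 and -0.02 after normexp.

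Col8a1 forms a short-chain network under endothelium and in vessel walls. It had levels of 0.0867, 0.0456 and 0.0504 and the largest differences in size of any collagen gene measured on all 3 arrays, -0.93 ± 0.38 in YAP (1SA) and -0.78 ± 0.34 in YAP (2SA) livers. Its intensities of 25.2, 12.6 and 16.1 lay near the lowest measured ones, and after normexp the differences were -0.15 and -0.26. Over the 8 measured genes of the other types, the median difference was -0.25 in YAP (1SA), -0.32 in YAP (2SA) and -0.02 between the mutants. After normexp the first of these was -0.08. In YAP (2SA) livers 7 of these 8 were lower than in YAP (WT) livers, beside 56.4% of all genes, and 6 of the 7 by more than the mark, Col20a1 by its brighter probe only.

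**Figure D3:**
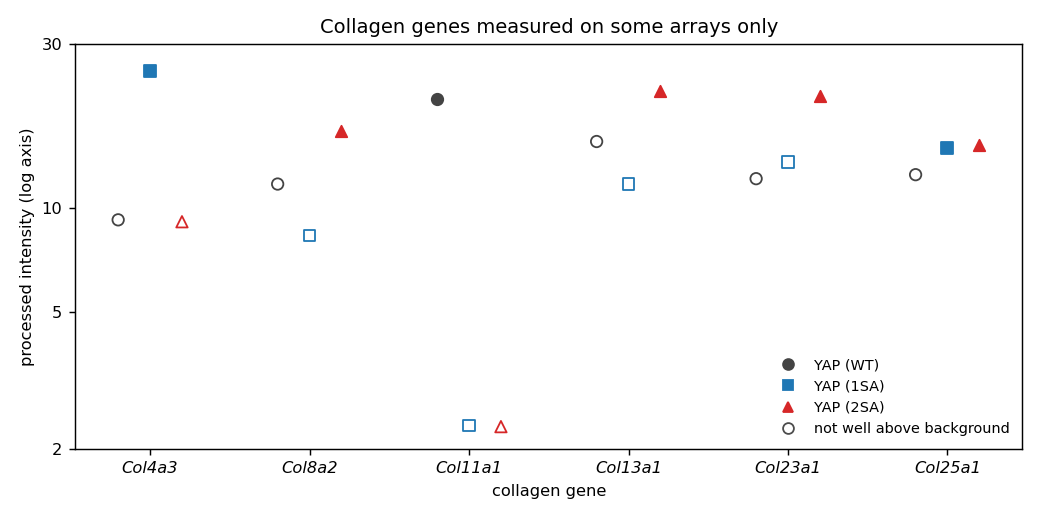
Processed intensity (log axis) of the 6 collagen genes measured on some arrays only, by the probe measured on at least 1 array; open symbols were not well above background. Col11a1 was measured in YAP (WT) livers alone at 20.8 and Col4a3 in YAP (1SA) livers alone at 25.0.

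For the 6 genes measured on some arrays, a fold is only a rough estimate. It was taken against the higher of the dim value and the lowest measured signal of that array. That signal could come from any probe and is not the detection limit of the probe in question. Col13a1, for instance, was not well above background at 15.6 in YAP (WT) livers, where the lowest measured intensity was 12.5. The folds are therefore not strict lower bounds. Col11a1, a chain of type XI collagen, had an intensity of 20.8 on the YAP (WT) array and 2.33 and 2.32 on the others. By this estimate it was 1.92-fold higher in YAP (WT) than in YAP (1SA) livers and 3.85-fold higher than in YAP (2SA) livers. Col4a3, another chain of the glomerular network, had intensities of 9.25, 25.0 and 9.13. By the same estimate it was 2.11-fold higher in YAP (1SA) than in YAP (WT) livers and 3.18-fold higher than in YAP (2SA) livers. Col8a2, Col13a1 and Col23a1 were measured in YAP (2SA) livers alone and Col25a1 in both mutants, with estimates from 1.11-fold to 1.61-fold. Among the arrays, that of YAP (2SA) also had the most measured probes and the lowest measured intensity. All 6 probes had 1 spot each and no measured intensity above 25.0, so each rests on 1 dim spot per array.

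Among genes measured on both arrays of a comparison, no collagen differed 2-fold. Of 22 genes measured on both arrays, 0 were 2-fold higher and 0 were 2-fold lower in YAP (1SA) than in YAP (WT) livers, where the background over 13675 named genes was 0.739% higher and 1.14% lower. The background in YAP (2SA) against YAP (WT) livers was 1.15% higher and 0.580% lower over 13786 genes. Between the mutants it was 2.49% higher and 1.17% lower over 13875 genes, of which 23 were collagens. At these shares fewer than 1 gene among 22 or 23 would be 2-fold in either direction, so the counts of 0 are near the background.

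At 1.5-fold, 1 collagen gene (Col27a1) was higher and 3 (Col4a5, Col5a2 and Col8a1) were lower in YAP (1SA) than in YAP (WT) livers. That is 4.55% and 13.6% of the members, beside 3.12% and 4.71% of all genes. In YAP (2SA) against YAP (WT) livers 0 were higher and 3 (Col1a1, Col5a2 and Col8a1) were lower, beside 3.88% and 3.16%. Between the mutants 1 (Col4a5) was higher and 1 (Col14a1) was lower in YAP (2SA) livers, beside 7.00% and 4.72%. Of the genes named here, Col1a1 alone was past 1.5-fold after normexp.

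By the mark of 0.21 for error between spots, 3 of the 22 collagen genes were higher and 10 (45.5%) lower in YAP (1SA) than in YAP (WT) livers, beside 15.9% and 18.9% of all genes. In YAP (2SA) livers 1 was higher and 11 (50%) were lower, beside 15.4% and 19.1%. The 11 were 5 fibrillar genes and 6 of the other types, and none was a basement membrane gene. As the mean of a gene's probes Col4a4 (-0.23) was also lower beyond the mark, and Col20a1 (-0.13) was not. Between the mutants 4 were higher and 6 (27.3%) lower in YAP (2SA) livers, beside 21.1% and 23.8%. The share of lower genes thus stood above the background against YAP (WT) and close to it between the mutants. After normexp the 10 lower genes in YAP (1SA) livers were 5, and the share over all genes was not computed for that setting.

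**Figure D4:**
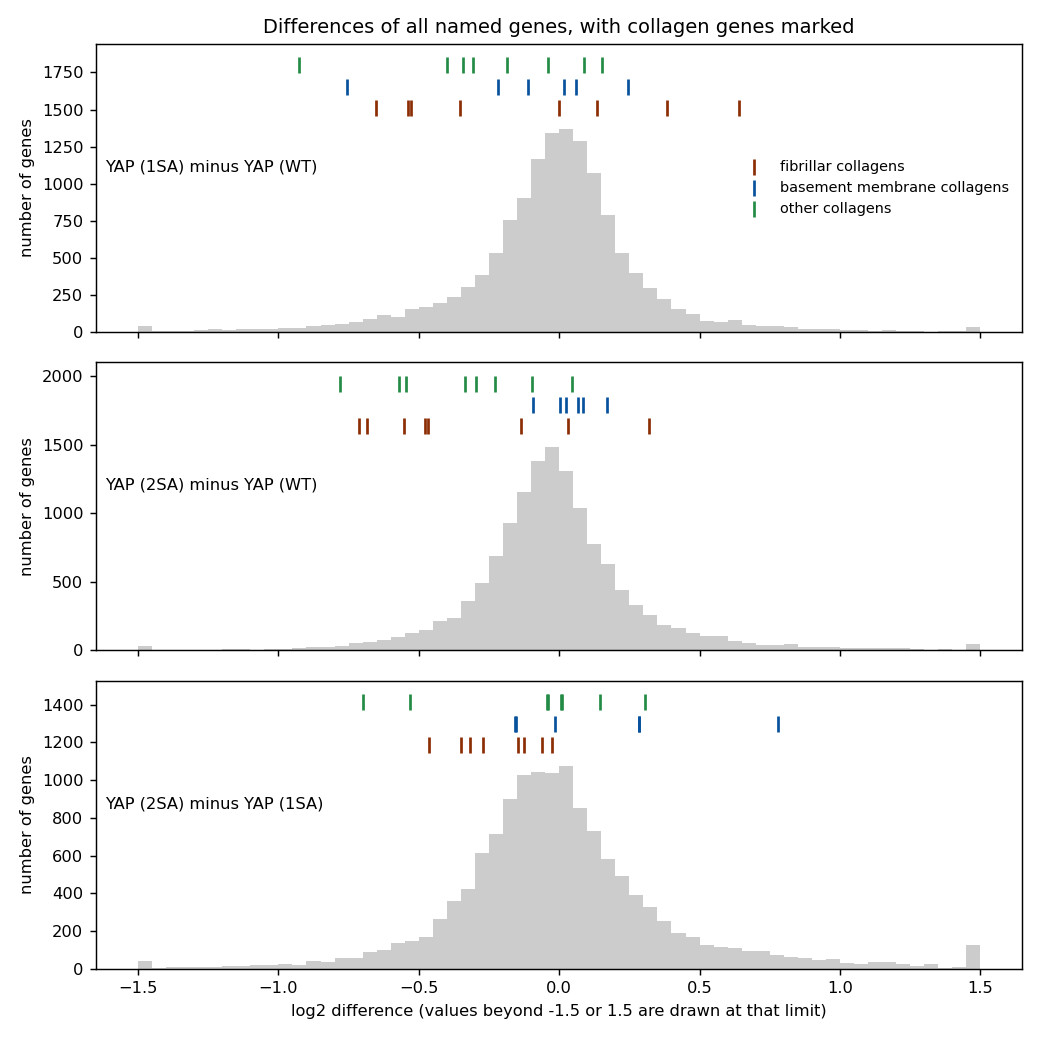
Number of named genes by log2 difference (grey, 13626 genes measured on all 3 arrays), with each collagen gene as a tick, for the 3 comparisons. In YAP (2SA) against YAP (WT) livers, 5 of 8 fibrillar ticks lie below -0.4 and the 6 basement membrane ticks lie between -0.09 and 0.17.

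The genes that make and handle collagen did not share a common shift. Of 19 enzymes and chaperones of collagen folding, 17 were measured, with medians of -0.01 in YAP (1SA) and -0.15 in YAP (2SA) livers. P4hb, a subunit of prolyl 4-hydroxylase and a general protein disulfide isomerase, had levels of 73.3, 70.9 and 65.9. Ppib, a prolyl isomerase of the endoplasmic reticulum, differed by 0.07 and -0.05, and Mia3, which loads collagen for export, by -0.11 and -0.20. At 1.5-fold none of the 17 differed in YAP (1SA) livers. In YAP (2SA) livers 1 was higher, P4ha2 of prolyl 4-hydroxylase at 0.59, and 1 was lower, the chaperone Fkbp10 at -0.66, beside 3.88% and 3.16% of all genes; these were named after their values were seen. Plod2 and P3h2 were not well above background.

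For propeptide trimming and cross-linking, 10 of 14 genes were measured, with medians of -0.19 and -0.06. Bmp1, which removes the C-propeptide, differed by -0.15 and 0.15 and its enhancer Pcolce by -0.08 and -0.01. Tgm2, a transglutaminase that cross-links matrix proteins, had levels of 40.3, 33.8 and 53.1. The cross-linking enzyme Lox, with Tll2 and Adamts3, was not well above background on any array.

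Enzymes that degrade collagen and their inhibitors were low on the YAP (1SA) array, with a median of -0.32 over 10 measured of 16, against -0.17 in YAP (2SA) livers and 0.39 between the mutants. Mmp13, the interstitial collagenase of mice, had levels of 0.506, 0.189 and 0.574, which is -1.42 in YAP (1SA) and 0.18 in YAP (2SA) livers. Mmp12, a macrophage elastase, differed by -1.11 and -0.16, and Timp1, an inhibitor of these enzymes, by -1.07 and -0.19. These 3 genes were 2-fold lower in YAP (1SA) livers and none of the 10 was 2-fold higher, beside 1.14% and 0.739% of all genes. Mmp15 differed by 0.04 and -0.18 and Timp3 by -0.36 and 0.06, whereas Timp2 had levels of 8.18, 6.69 and 11.6.

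Among receptors for collagen, 6 of 9 were measured, with medians of -0.21 and 0.07. Itga11, the integrin chain that binds fibrillar collagen on fibroblasts, had levels of 0.171, 0.138 and 0.406 and was the only one past 2-fold, 1.25 higher in YAP (2SA) livers, where 1.15% of all genes were 2-fold higher. Its partner Itgb1 had levels of 3.81, 3.74 and 3.85, Itga1 differed by -0.10 and 0.12, and Lair1, an inhibitory receptor of leukocytes, by -0.38 and 0.45. Itga11 was highest in YAP (2SA) livers. Col1a1 was lower than in YAP (WT) livers in both mutants, and its difference between the mutants was within the mark for error between spots.

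The 12 matrix proteins that bind collagen were all measured, with medians of -0.09 and -0.12. Dcn, the proteoglycan decorin, had levels of 19.2, 20.7 and 12.9, lowest in YAP (2SA) livers as were Col14a1 and Col16a1. Sparc, which binds collagen during secretion, differed by -0.06 and -0.22, and Fn1, fibronectin, by 0.12 and 0.07. At 1.5-fold 3 of the 12 were lower in YAP (1SA) livers, beside 4.71% of all genes, namely Nid1, a linker of type IV collagen and laminin, at -0.71, and the fibulins Fbln1 at -0.64 and Fbln2 at -0.93, named after their values were seen. In YAP (2SA) livers none of the 12 passed 1.5-fold.

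All 15 genes of transforming growth factor-beta (TGF-beta) signalling, a major inducer of type I collagen, were measured, with medians of -0.17 and -0.04. Ccn2, which encodes connective tissue growth factor and is a target of both YAP and TGF-beta, had levels of 2.18, 1.60 and 9.68. It differed by -0.44 in YAP (1SA) and 2.15 in YAP (2SA) livers, opposite in sign to Col1a1 in the latter. By real-time PCR the study reported this gene as increased early after HTVi with both mutants and not with YAP (WT). The YAP (1SA) array did not show that increase, and the reason was not tested. Tgfbi, induced by TGF-beta, had levels of 9.48, 7.91 and 12.6, while the receptor Tgfbr2 differed by -0.14 and -0.17 and Smad4 by 0.09 and 0.11.

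**Figure D5:**
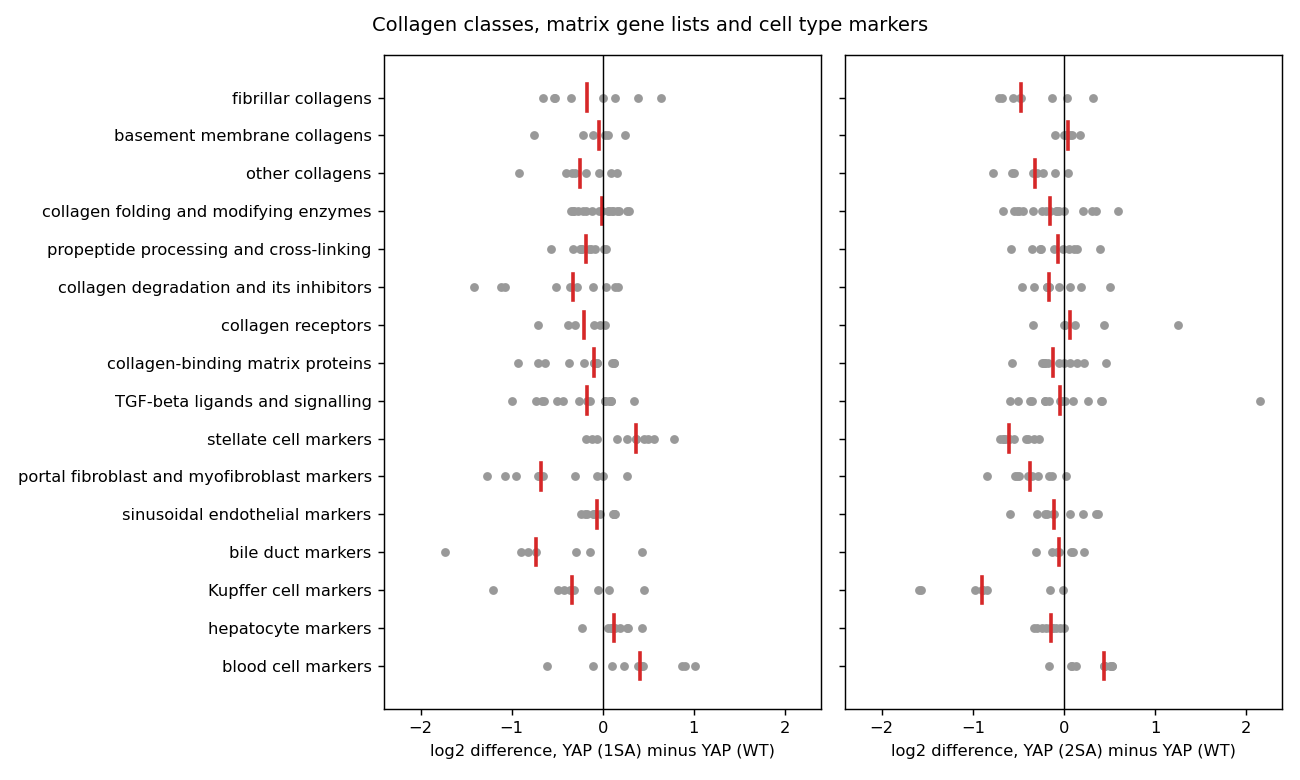
Log2 differences from YAP (WT) in YAP (1SA) (left) and YAP (2SA) livers (right) for the collagen classes, the genes that handle collagen and cell type markers; each point is 1 gene measured on all 3 arrays and each red bar is the median of its row. Stellate cell markers had medians of 0.36 and -0.60, and fibrillar collagens of -0.18 and -0.47.

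Markers of the cells that make collagen moved with the collagen genes in part, and their part in the result was not tested. Of 13 stellate cell markers 11 were measured, and their summed level was 60.1 in YAP (WT), 70.2 in YAP (1SA) and 39.8 in YAP (2SA) livers. All 11 were lower in YAP (2SA) than in YAP (WT) livers, beside 56.4% of all genes. In YAP (1SA) livers 8 of the 11 were higher, beside 6775 of all 13626 genes, while Col1a1, Col1a2 and Col3a1 were lower. Colec11 had levels of 3.59, 4.63 and 2.20 and Ecm1 levels of 19.0, 17.5 and 11.9. The transcription factors Lhx2 and Hand2 differed by 0.78 and 0.45 in YAP (1SA) and by -0.41 and -0.64 in YAP (2SA) livers, and Rgs5 by 0.56 and -0.66. Gfap was not well above background on any array.

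Of 11 markers of portal fibroblasts and myofibroblasts 10 were measured, with summed levels of 26.6, 20.0 and 20.4. Of the 10, 8 were lower in YAP (1SA) and 9 in YAP (2SA) livers, beside 50.3% and 56.4% of all genes. Acta2, the smooth muscle actin of contractile cells, had levels of 3.86, 1.60 and 2.71. Tagln, of the same cells, had levels of 12.7, 10.3 and 9.71, Msln differed by -1.08 and -0.54, and Entpd2 by 0.00 and -0.35. The medians of this list were -0.68 and -0.37.

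Other cell types also moved between arrays. Bile duct markers, 7 of 8 measured, had summed levels of 13.4, 4.57 and 11.1, with Spp1 (osteopontin) at 12.2, 3.66 and 9.80, Krt19 at 0.461, 0.261 and 0.437 and Sox9 at 0.312, 0.255 and 0.363. Spp1 made up most of these sums. In YAP (1SA) livers 6 of the 7 markers were lower than in YAP (WT) livers and 1 was higher, beside 50.3% of all genes lower. Col4a5 was also low on that array, and a link to these markers was not tested. Kupffer cell markers, all 8 measured, had summed levels of 237, 179 and 136, with Marco at 52.5, 22.7 and 17.4, Clec4f at 10.9, 14.9 and 3.69, Cd5l at 115, 86.1 and 64.4 and Csf1r at 37.7, 36.4 and 37.6.

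Sinusoidal endothelial markers, all 10 measured, had summed levels of 93.6, 98.4 and 79.1 and medians of -0.07 and -0.11. In YAP (2SA) livers 4 of the 10 were higher and 6 lower than in YAP (WT) livers, beside 56.4% of all genes lower. The 3 brightest, Kdr, Stab2 and Clec4g, were at -0.12, -0.21 and -0.59 in YAP (2SA) livers. Hepatocyte markers summed to 4734, 5155 and 4194, with differences of 0.11 and -0.04 for Fgb and of 0.13 and -0.19 for Serpina1a. Blood cell markers, 10 of 11 measured, summed to 77.9, 131 and 98.9, with Hbb-bt at 1.01 and 0.53, Hba-a1 at 0.90 and 0.45, Alas2 at 0.43 and 0.09 and Ptprc, a leukocyte marker, at -0.61 and 0.53.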

How the data were processed

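Total liver RNA of 3 samples was labelled with Cy3 and hybridised by the authors to Agilent SurePrint mouse arrays, scanned and processed with Feature Extraction 10.10.1.1, with probes placed on build mm9 per the file headers. The deposited intensity is the spot brightness after background subtraction, on a linear scale and not scaled between arrays. The series matrix holds the same intensity times 1 constant per array (3.02, 3.08 and 2.81), whose source is not given in the sources used here.

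Spots with outlier flags were left out (181, 148 and 182), none was saturated, and the log2 of the deposited intensity was averaged per probe, after which each array's 75th percentile (291, 276 and 319) was subtracted on the same scale. A probe was measured where at least 50% of its spots were well above background (28972, 29705 and 30784 of 55681 probes). Accessions matched 26762 probes to 20284 symbols of assembly GRCm38.p6, and collagens were 61 probes, 60 of them with 1 spot. A gene is its brightest probe measured on all 3 arrays; counts at 1.5-fold and 2-fold used the brightest measured on both. Scripts were tested on simulated data.

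Every collagen gene could be named. Of the 13 other lists, genes past 2-fold in a comparison and the 3 brightest were named, except genes not reported here. Members, lists and naming rule were chosen with earlier results of these data known, and the mark of 2 SD after values were seen. Computations used Python 3.11.15, pandas 2.3.3, numpy 2.4.6, matplotlib 3.10.9, R 4.3.3 and limma 3.58.1 (normexp). The number of arrays limits the precision.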

Additional observations from a re-analysis of the deposited data

Results flagged for a closer look

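By its brightest probe no collagen gene, and no class of collagens, lay beyond the mark of 0.21 in opposite directions in the 2 mutants; Col14a1 did by its second probe, at 0.28 and -0.27, and as the mean of probes, at 0.22 and -0.41. One list and 13 genes around collagen did, each with 1 array per group, so that the difference between the mutants was not tested. In each pair the first value is the log2 difference of YAP (1SA) and the second that of YAP (2SA) from YAP (WT) livers. The median of the stellate cell markers was 0.36 and -0.60. Of that list, Hand2 was at 0.45 and -0.64, Colec11 at 0.37 and -0.71, Lhx2 at 0.78 and -0.41 and Rgs5 at 0.56 and -0.66.

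Among genes that handle or sense collagen, Tgm2 was at -0.25 and 0.40, Timp2 at -0.29 and 0.50, Itga11 at -0.31 and 1.25 and Lair1 at -0.38 and 0.45. The TGF-beta targets Ccn2 and Tgfbi were at -0.44 and 2.15 and at -0.26 and 0.40. Among markers of other cells, Sox9 was at -0.29 and 0.22, Clec4f at 0.45 and -1.56 and Ptprc at -0.61 and 0.53.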

How the results depend on the processing

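Quantile normalisation, the array median, the series matrix values, flagged spots kept, the mean of a gene's probes and a 3-fold threshold moved no class median by more than 0.10 and no count of collagen genes by over 1.5 times. At 1.5-fold the counts were 1 higher and 3 lower in YAP (1SA), 3 lower in YAP (2SA), and 1 higher and 1 lower between the mutants. With normexp the fibrillar median in YAP (2SA) was -0.32 and that of the other types in YAP (1SA) was -0.079, 5 genes were lower in YAP (1SA) and 0 higher in YAP (2SA) beyond the mark of 0.21. Without a filter on dim probes 42 genes entered. The medians were then -0.35 (fibrillar, YAP (1SA)), -0.45 (other types, YAP (2SA)) and -0.085 (basement membrane, between the mutants). Beyond the mark, 8 were higher and 19 lower in YAP (1SA), 6 and 24 in YAP (2SA), and 9 and 19 between the mutants. These counts include the 14 genes not well above background on any array. Over all 20266 named genes without the filter the medians were -0.06 in YAP (1SA), -0.08 in YAP (2SA) and -0.10 between the mutants. At 2-fold, 1 was higher and 1 lower in YAP (1SA), 5 were lower in YAP (2SA) and 3 were lower between the mutants. With the stricter filter, which kept probes brighter than the median measured probe, 10 genes were left. The medians were -0.44 (fibrillar, YAP (1SA)), -0.041 and -0.54 (other types, YAP (1SA) and YAP (2SA)), and 0.28 and -0.53 (basement membrane and other types, between the mutants). Beyond the mark, 1 was higher and 4 lower in YAP (1SA), 0 and 6 in YAP (2SA), and 2 and 3 between the mutants. Both filters changed which genes were counted, and the cause of the normexp shifts was not tested. The share over all genes was not computed for normexp or for either filter, so their counts have no background beside them. Medians against YAP (WT) kept their sign in these settings, except that of the basement membrane genes in YAP (1SA), -0.047 and 0.040 without the filter.

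Of the 66 differences of single genes, normexp moved 21 by more than 0.10, and the mean of probes moved 6. Past the mark, a sign changed for Col4a4 in YAP (1SA), 0.24 by its brighter probe and -0.08 as the mean of probes, and for Col7a1 between the mutants, 0.30 and with normexp -0.02. The counts beyond the mark were added after values were seen. No fit with the slide as a block was run, since all 3 arrays shared it. No paired analysis was possible because a group held no more than 1 array. Signal over background limits Col5a2, Col8a1 and Col11a2, whose levels lay below 0.1, and the 14 undetected genes have no measured difference.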
